A study of Mus musculus with 3 samples.

Results

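The genes described here hold haematopoietic stem and progenitor cells in the marrow or release them from it. They are 8 genes, chosen by name for their known roles, out of the 17250 gene names in the tables. The set holds the chemokine Cxcl12 (SDF-1) and its receptor Cxcr4, the protease Dpp4 (CD26), the integrin subunits Itga4 and Itgb1, their ligand Vcam1, the stem cell factor Kitl and the hyaluronan receptor Cd44. Each symbol matched a single row of the tables.

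The values come from BM cells flushed from C57BL/6 mice aged 6 to 8 weeks that had received LECT2, leukocyte cell-derived chemotaxin 2, a secreted protein, for 0, 3 or 5 days. LECT2 was given under the skin every day at 300 μg per kg. For the 0-day mice the labels give neither a vehicle nor an injection. There was 1 RNA-sequencing library for each time point, no label gives the number of mice behind a library, and a replicate check of any difference is lacking. All 3 libraries hold the mixed cells of whole marrow, in which stem cells are rare, so that each level is an average over all cell types that were flushed out. In such a mixture, fewer cells of a type and less RNA per cell cannot be told apart.

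As background, stem and progenitor cells stay in the marrow because the chemokine CXCL12, secreted by stromal, endothelial and osteolineage cells, binds CXCR4 on their surface, and because the integrin α4β1 (VLA-4) anchors them to VCAM1 and fibronectin. Membrane-bound stem cell factor, which binds the receptor KIT, and CD44, which binds hyaluronan, add to this hold. The surface protease CD26 cuts CXCL12 at its amino end and inactivates it, and neutrophil proteases cut CXCL12, VCAM1 and other anchors. Mobilizing agents such as G-CSF or CXCR4 antagonists act on these contacts.

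The unit is RPKM, the reads on a gene divided by its length and by the reads of its library, so that levels of different genes can be compared. The libraries held between 15146983 and 15523952 reads on genes. Changes are log2 ratios of RPKM + 0.1, with 95% exact Clopper-Pearson limits for the quotient of both read counts. These intervals cover counting error only, since the reads carry no molecular identifiers, and they hold no variation between mice. The share of reads on the 10 most abundant genes was 12.5% in the 0-day and 5.38% in the 5-day library, a shift for which RPKM makes no allowance. Over the 11144 genes averaging at least 1 RPKM, the median log2 ratio to 0 days was not 0 but 0.10 after 3 days and 0.31 after 5 days, and the TMM scaling of edgeR, which allows for this, brought it to 0.02 and 0.01.

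The members spanned a wide range of levels. Cxcr4 was the most abundant at every time point, followed by Cd44, and Kitl was the lowest. At 0 days, Itga4 and Dpp4 were neighbours in this order with overlapping counting intervals, and at 3 days the intervals of Itgb1, Itga4 and Vcam1 overlapped. At 5 days no neighbouring intervals overlapped, and the order by deposited RPKM was Cxcr4, Cd44, Itga4, Itgb1, Vcam1, Dpp4, Cxcl12 and Kitl.

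**Figure D1:**
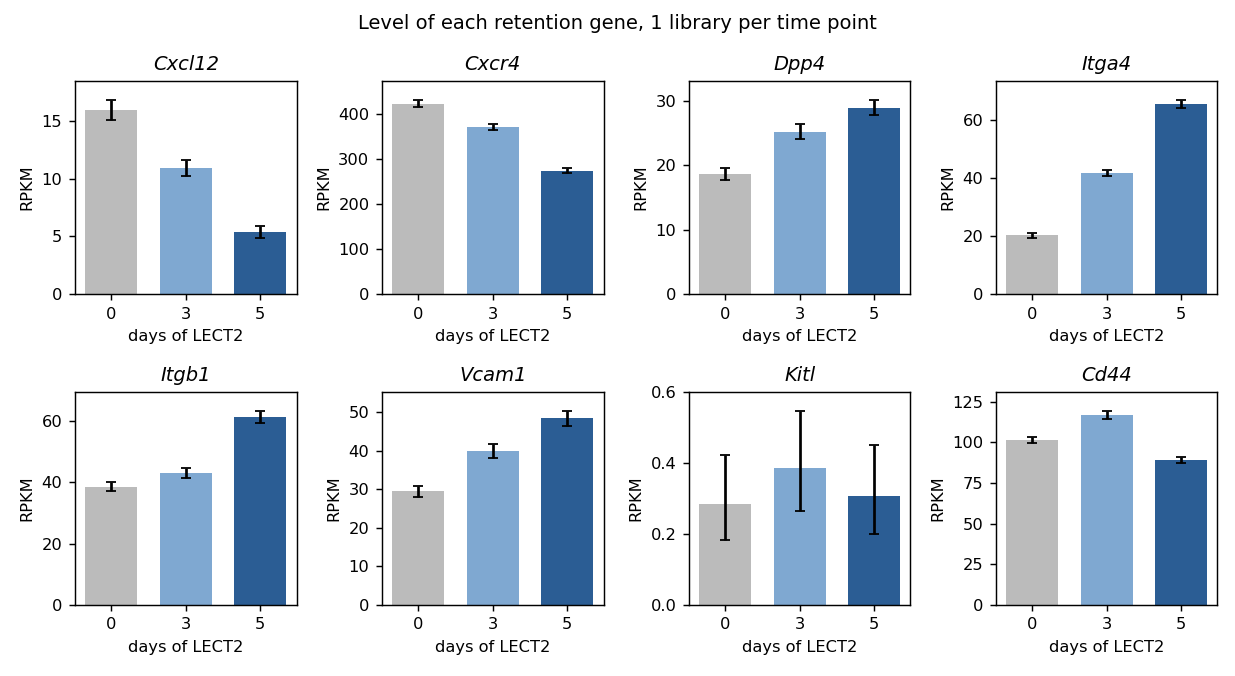
Level of each gene in RPKM (vertical axis, starting at 0, a different scale for each gene) in the libraries of 0, 3 and 5 days of LECT2, with 95% exact Poisson intervals of the read count as error bars and 1 library per bar. Cxcl12 steps down from 15.9 to 5.38 RPKM and Itga4 steps up from 20.2 to 65.5 RPKM, while the intervals of Kitl overlap at all time points.

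A gene was counted as higher or lower when its ratio was at least 2-fold and its level at least 1 RPKM in either library. Of the 8 members, 7 reached this level, the exception being Kitl. A gene below 1 RPKM in 1 library of a pair could be tested only where the other library was higher. At 3 days 1 of the 7, Itga4, was higher, against 4.08% of all 11325 genes tested, and 0 were lower, against 2.41%. With TMM scaling 0 members were higher and 0 lower at 3 days, against 3.1% and 3.24% of all genes, and with the trend on gene length removed, which is described below, also 0 and 0, against 3.31% and 1.23%. At 5 days 1, again Itga4, was higher and 1, Cxcl12, was lower than at 0 days, where 15.5% of all 11497 genes tested were higher and 5.91% lower. The same 2 genes passed with TMM scaling, against 7.13% of all genes higher and 10.2% lower, and with the length trend removed, against 12.7% and 4.21%. At a limit of 1.5-fold 4 of the 7, Itga4, Vcam1, Itgb1 and Dpp4, were higher, against 34.5% of all genes, and 2, Cxcl12 and Cxcr4, were lower, against 12.3%. The 8 members had medians of 0.28 and 0.36 on the log2 scale at 3 and 5 days, beside 0.10 and 0.31 for all genes averaging at least 1 RPKM. Kitl is below that level, and the 7 other members had medians of 0.20 and 0.63. With the length trend removed the order turned, with 0.029 and 0.029 for the 8 members and 0.12 and 0.37 for all genes. The 7 members then had 0.017 and 0.31. The members therefore did not move as a block, and their values are described singly. The comparisons of 3 and of 5 days share the library of 0 days. For the counts of the marker and related lists below, the same shares of all genes apply. With the deposited RPKM these are 4.08% higher and 2.41% lower at 3 days, and 15.5% and 5.91% at 5 days.

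Cxcl12, the chemokine that retains stem cells, was lower at both time points. Its reads numbered 1402, 935 and 473 in the libraries of 0, 3 and 5 days, or 15.9, 10.9 and 5.38 RPKM. Its level was thus highest in the 0-day library and lowest in the 5-day library, and no counting intervals overlapped. Against 0 days, the 3-day library gave a log2 ratio of −0.54 (−0.67 to −0.43) and the 5-day library one of −1.55 (−1.72 to −1.42), when 33.8% of the 0-day level was left. Among the genes with reads, Cxcl12 went from percentile 73.3 of the RPKM to percentile 64.0 and 48.4. In the order of the log2 ratios of all 11144 genes, it stood at percentile 10.3 at 3 days and 2.33 at 5 days.

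The direction of Cxcl12 was the same under every scaling run, and the ratios were further below 0 under TMM scaling, at −0.63 and −1.85. They were also further below 0 beside genes of like length. In these libraries long genes had higher ratios than short ones, and the tables give Cxcl12 a length of 5670 bases. Genes between 4478 and 5799 bases centred on log2 ratios of 0.42 and 0.66 at these times, and with the trend on length removed Cxcl12 stood at −0.86 and −1.90. The cells that make CXCL12 were followed by 2 lists of markers. Of the 14 stromal and endothelial markers, 7 reached 1 RPKM and 3 of these were lower and 0 higher at 5 days, or 2 and 0 with the length trend removed, among them Lepr, the receptor that marks the stromal cells rich in CXCL12, with a log2 ratio of −1.002. In the libraries of 0, 3 and 5 days, Lepr stood at 1.82, 0.995 and 0.856 RPKM. The summed level of the 14 went from 65.8 to 56.1 and 55.9 RPKM, of which Pecam1, also present on leukocytes, held 38.1, 33.5 and 41.7, and Nes was at 0 reads in the 0-day library. Of the 10 osteolineage markers, 7 of the 8 tested were lower at 5 days, 5 with the length trend removed, and their sum went from 78.9 to 74.0 and 29.4 RPKM. The lower osteolineage markers include Bglap, with 43 reads at 0 days and 2 at 5 days, and Bglap2, with 12 and 2. Runx2, which the paper uses as an osteolineage marker, had 13, 26 and 27 reads in the order of time. It was below 1 RPKM in each library and so was not tested. The paper reports that LECT2 left osteolineage cell numbers unchanged. The part of stromal, endothelial and osteolineage cells in the level of Cxcl12 was not tested.

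The partners of CXCL12 outside the set were its scavenging receptor Cxcr7, other ligands of CXCR4 or CXCL12 and their co-receptor. Of these 6 genes 5 were tested, 1 was lower and 0 were higher at 5 days, and their median log2 ratio was −0.34, but 0.15 with the length trend removed. The lower gene was Cxcl14, a chemokine reported to bind CXCR4, at 3.14, 1.43 and 0.767 RPKM. Its log2 ratio at 5 days was −1.90 (−2.78 to −1.35), from 90 reads at 0 days and 22 at 5 days. The abundant members were Cd74, a receptor for the cytokine MIF, with log2 ratios of −0.42 and −0.53, and Mif itself, a short gene, with −0.81 and −0.32. With the length trend removed these were −0.09 and −0.15 for Cd74 and −0.11 and 0.65 for Mif. Hmgb1, which forms a complex with CXCL12, had −0.38 and 0.05, the second being −0.26 under TMM scaling. Cxcr7 was counted with 0, 1 and 0 reads, too few for a ratio.

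Cxcr4, the CXCL12 receptor, was the most abundant member and was lower at 5 days by less than the 2-fold limit. Its 11937, 10241 and 7741 reads at 0, 3 and 5 days correspond to 422, 371 and 274 RPKM, with no overlap of the counting intervals. The level stepped down at each time point, yet stayed near percentile 99 of all genes, at 98.9, 98.9 and 98.7. Its log2 ratio was −0.19 (−0.22 to −0.15) in the first comparison and −0.62 (−0.67 to −0.58) in the second. Cxcr4 is a short gene in the tables, at 1821 bases, in the length class from 1495 to 1885 bases, whose median was −0.11 at 3 days and 0.08 at 5 days. With the trend on length removed its ratio at 3 days was 0.02, so that the direction at 3 days depends on this correction. At 5 days the ratio was −0.38 with the trend removed and −0.93 under TMM scaling, lower in each case.

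CXCR4 is known on many marrow cell types, among them neutrophils, B cell precursors and T cells. Late neutrophil markers, such as the granule and calprotectin genes, had a summed level of 139393, 108284 and 38509 RPKM in the 3 libraries, with 10 of 11 tested markers lower at 5 days, 8 with the length trend removed. The most abundant were S100a9, S100a8 and Ngp. Markers of pro-B and pre-B cells summed to 2459, 1955 and 1827 RPKM, with 2 of 13 higher and 1 lower at 5 days, but 0 and 2 under TMM scaling and 1 and 0 with the length trend removed. Their part in the level of Cxcr4 was not tested. The RPKM of Cxcr4 was 26.5, 34.1 and 51.0 times that of Cxcl12 in the same libraries.

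Of 21 tested genes that carry or damp the CXCR4 signal, 2 were higher and 2 lower at 5 days, and 0 in either direction at 3 days. Among all genes 15.5% were higher and 5.91% lower at 5 days. Both lower genes, Rgs1 and Rgs2, encode regulators that shorten G protein signals. Rgs1 went from 118 to 77.9 and 39.7 RPKM and Rgs2 from 201 to 157 and 85.0 RPKM, with log2 ratios of −1.57 and −1.24 at 5 days. Both higher genes, Grk5 and Adrbk2 (GRK3), encode kinases that desensitize receptors, with log2 ratios of 1.31 (1.06 to 1.62) and 1.08 (0.94 to 1.25) at 5 days. Under TMM scaling Adrbk2 stood at 0.775, below the 2-fold limit. The most abundant genes of this list were the G protein subunit Gnai2 with 0.10 at 5 days, but −0.21 under TMM scaling, the small GTPase Rac2 with −0.38 and Cdc42 with −0.23. The list's median was 0.27, and −0.04 under TMM scaling.

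**Figure D2:**
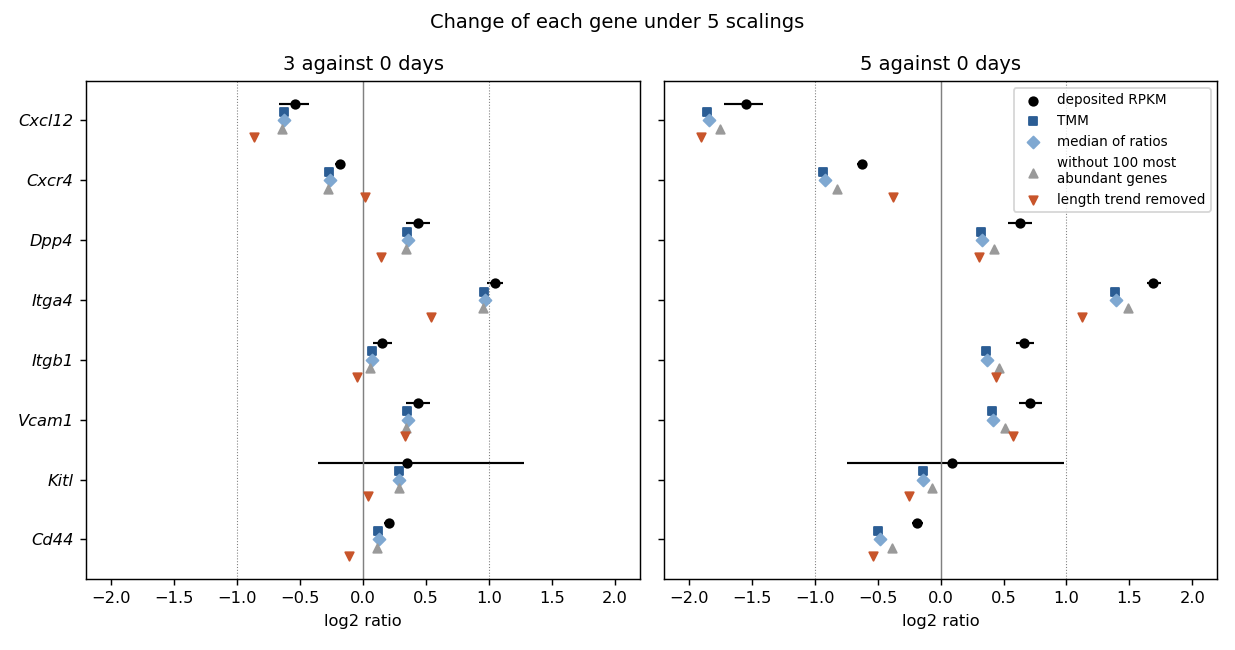
Log2 ratio of RPKM of each gene at 3 days (left) and 5 days (right) against 0 days, under the deposited RPKM with its 95% counting interval (black circles) and under TMM, median-of-ratios, top-100-excluded and length-corrected scaling; dotted lines mark 2-fold. Every symbol of Cxcl12 lies left of 0 and every symbol of Itga4 right of 0, while Cxcr4, Itgb1 and Cd44 at 3 days have symbols on both sides.

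The promoters of Cxcl12, Cxcr4 and Itga4, the genes with the largest ratios in the set and the receptor, are shown for the sequence that stands before each gene's start. They are the 250 bases before the start, on the gene's own strand, from RefSeq (GRCm38.p6). The capitals mark GGGCGG, the GC box bound by SP1, on either strand (as CCGCCC on the other strand), and TATAAA, the TATA box, on either strand (as TTTATA on the other). The windows are chr6:117168285-117168534 on the plus strand for Cxcl12, chr1:128592300-128592549 on the minus strand for Cxcr4 and chr2:79255176-79255425 on the plus strand for Itga4.
Cxcl12: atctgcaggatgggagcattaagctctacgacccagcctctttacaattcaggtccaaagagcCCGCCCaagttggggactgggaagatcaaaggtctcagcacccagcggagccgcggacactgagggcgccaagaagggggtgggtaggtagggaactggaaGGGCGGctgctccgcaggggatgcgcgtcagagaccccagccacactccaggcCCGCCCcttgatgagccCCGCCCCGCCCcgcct
Cxcr4: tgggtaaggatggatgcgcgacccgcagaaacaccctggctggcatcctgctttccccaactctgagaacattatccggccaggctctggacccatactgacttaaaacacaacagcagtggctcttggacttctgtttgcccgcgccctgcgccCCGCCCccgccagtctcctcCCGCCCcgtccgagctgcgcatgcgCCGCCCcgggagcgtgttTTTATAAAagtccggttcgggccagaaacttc
Itga4: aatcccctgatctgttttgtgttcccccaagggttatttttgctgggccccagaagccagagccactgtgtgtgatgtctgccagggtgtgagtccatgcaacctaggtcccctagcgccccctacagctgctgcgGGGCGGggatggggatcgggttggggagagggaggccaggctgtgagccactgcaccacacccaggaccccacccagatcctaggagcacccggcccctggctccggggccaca
The Cxcl12 window had 64.4% G and C and held 5 GC boxes, the nearest 5 bases before the start. The Cxcr4 window had 61.2% and held 3 GC boxes and 2 overlapping TATA boxes, one on each strand, the nearest 24 bases before the start. The Itga4 window had 64% and held 1 GC box. The median window of the 32851 in the table had 52.4%. Of all windows, 32.7% hold a GC box and 12.4% a TATA box on either strand, and 5 of the 7 members with a row hold a GC box. Such a match describes the letters in the window. Genes on both sides of the changes carry GC boxes, Cxcl12 with the lowest ratio and Itga4 with the highest.

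Dpp4, which encodes the protease that inactivates CXCL12, was higher by less than 2-fold. It drew 1527, 2015 and 2363 reads, or 18.7, 25.3 and 28.9 RPKM in the order of time, lowest in the 0-day library and with no overlap of the counting intervals. Its log2 ratio came to 0.43 (0.34 to 0.53) after 3 days and 0.63 (0.54 to 0.72) after 5 days. A part of this goes with the scaling and with the gene's length of 5268 bases. Under TMM scaling the ratios were 0.35 and 0.32, and with the length trend removed 0.14 and 0.31. The correction leaves medians of 0.12 and 0.37 for all genes, so that Dpp4 was then near the median gene, at percentile 52.2 and 45.2. Beside Cxcl12, the substrate of its protein, Dpp4 stood at 1.17, 2.32 and 5.38 times the RPKM in the same order.

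Several relatives of DPP4 are peptidases that cut after proline. Of the 6 tested genes of this family and related peptidases, 0 were higher at 3 days and 3 at 5 days, and 0 were lower at either time, and their median log2 ratio was 0.73 at 5 days. The higher genes were Dpp9 with a log2 ratio of 1.28, Dpp8 with 1.18 and Prep with 1.13. Prep, a peptidase of the cytosol, went from 29.2 to 38.9 and 63.9 RPKM. Under TMM scaling all 3 were below the 2-fold limit, at 0.98, 0.87 and 0.82. Dpp3, an aminodipeptidase of the cytosol, had 0.33. Fap, the surface protease nearest to DPP4, was below 1 RPKM at each time point.

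Of 19 tested proteases and inhibitors that act on the anchors of stem cells, 1 was higher and 1 lower at 3 days, and 2 were higher and 7 lower at 5 days. The lower genes at 5 days included Mmp8 and Mmp9, proteases of neutrophil granules, Ctsk, the collagen-cutting protease of osteoclasts, and Plaur, the urokinase receptor, together with the protease inhibitors Timp2 with a log2 ratio of −1.42 and Reck with −1.12. Mmp9 was at 353, 556 and 101 RPKM in the order of time, and so was highest in the 3-day library. Mmp8 went from 1017 to 1064 and 175 RPKM, with a log2 ratio of −2.53 at 5 days. Ctsk went from 5.04 to 1.92 and 0.913 RPKM, lower at both time points, and Plaur from 550 to 325 and 122 RPKM. The serine proteases of early granules did not pass the limit with the deposited RPKM. Elane, neutrophil elastase, was at 1142, 923 and 1451 RPKM and Prtn3, proteinase 3, at 312, 278 and 497 RPKM, with log2 ratios of 0.35 and 0.67 at 5 days. These were 0.036 and 0.36 under TMM scaling and 0.99 and 1.28 with the length trend removed. Both are also markers of promyelocytes, whose 6 markers summed to 2248, 2082 and 3631 RPKM. The higher genes were Adam10 with 1.03 and Adam17 with 1.02, sheddases that release surface proteins, both below the limit under TMM scaling at 0.72 and 0.71. At 3 days the higher gene was Mmp25, with a log2 ratio of 1.54 that was −0.15 at 5 days.

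Itga4, the α4 subunit of VLA-4, had the highest ratio of the set at both time points. The libraries of 0, 3 and 5 days held 3085, 6236 and 9992 of its reads, or 20.2, 41.9 and 65.5 RPKM. Each library was above the one before it, with no overlap of the counting intervals. The log2 ratios were 1.05 (0.99 to 1.11) and 1.69 (1.64 to 1.76), the second a 3.23-fold higher level. These ratios stood at percentile 96.8 and 97.5 of all genes, or at 86.4 and 91.2 with the length trend removed. Itga4 is also the longest member, at 9833 bases, in the length class with the highest median ratio. Genes from 5801 bases on had medians of 0.55 and 0.85 in the same comparisons. With the trend on length removed Itga4 stood at 0.54 and 1.12, and under TMM scaling at 0.96 and 1.38, so that it passed the 2-fold limit at 3 days under neither and at 5 days under both.

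**Figure D3:**
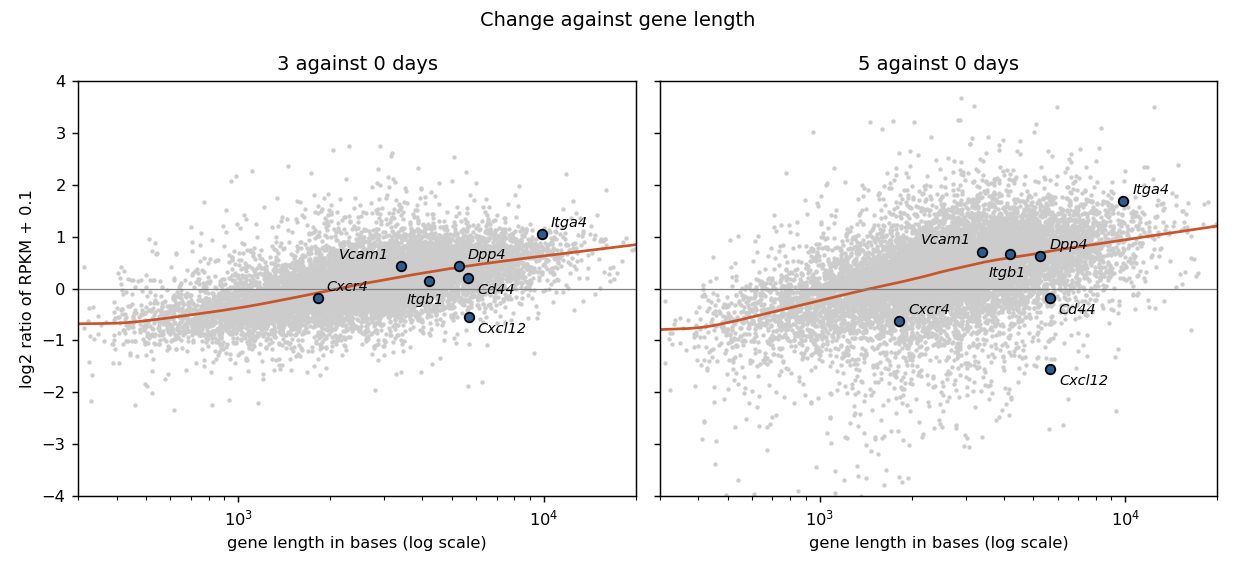
Log2 ratio of RPKM + 0.1 at 3 days (left) and 5 days (right) against 0 days for each gene averaging at least 1 RPKM (grey points) by gene length in bases (log axis), with the lowess trend (line) and the 7 members at this level. Itga4, with 9833 bases, lies above the trend, at 1.05 and 1.69, and Cxcl12, with 5670 bases, lies below it, at −0.54 and −1.55.

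Itgb1, the β1 subunit that pairs with α4, was higher by less than 2-fold at 5 days. It had 2513, 2728 and 3990 reads, or 38.6, 42.9 and 61.3 RPKM, with the 5-day library well above the others. Its ratio to 0 days on the log2 scale was 0.15 (0.08 to 0.23) for 3 days and 0.67 (0.60 to 0.74) for 5 days. At 3 days the direction depends on the processing, since the ratio was 0.07 under TMM scaling and −0.05 with the length trend removed. At 5 days these values were 0.36 and 0.44. The RPKM of Itga4 was 0.524, 0.975 and 1.07 times that of Itgb1 in the order of time with the deposited RPKM. With the length trend removed the log2 ratios of both at 5 days were closer, at 1.12 and 0.44.

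The β1 subunit pairs with several α subunits, and α4 also pairs with β7. Of the 6 such partners that were tested among 12, 2 were higher at 3 days and 5 at 5 days, and 0 were lower. Among all genes 4.08% were higher at 3 days and 15.5% at 5 days. Itga1 and Itga9, at 0.635 and 0.856 RPKM at 0 days, were tested only because their later levels passed 1 RPKM. The median log2 ratio of the 6 was 1.23 at 5 days. Itga1, of a collagen receptor, went from 0.635 to 2.91 and 8.16 RPKM, with a log2 ratio of 3.49 (3.30 to 4.09) at 5 days. Itga6, of a laminin receptor, went from 1.98 to 4.16 and 7.59 RPKM, with 1.89 (1.66 to 2.23). Itga5, of the fibronectin receptor, Itgav and Itga9 followed with 1.24, 1.21 and 1.04, and Itgb7 with 0.79 stayed below the limit. Under TMM scaling, and with the length trend removed, 2 of the 6 passed it at 5 days, Itga1 and Itga6, and 1 at 3 days, Itga1.

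Of 12 tested genes that link integrins to the cytoskeleton or switch them on, 0 passed the limit at 3 days, and 1 was higher and 0 lower at 5 days. The higher gene was Tln1, talin, which activates integrins from inside the cell, at 74.7, 134 and 150 RPKM and with a log2 ratio of 1.00 at the limit itself. Under TMM scaling Tln1 stood at 0.69 and with the length trend removed at 0.49, both under the limit. Itgb1bp1, which binds the β1 tail, was at −0.79, and lower past the limit under TMM scaling at −1.10. The most abundant gene was Rap1b, a GTPase that turns integrins on, with −0.58 at 5 days. The median of the list was 0.25, and −0.06 under TMM scaling.

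Vcam1, the ligand of VLA-4 on stromal cells, endothelium and marrow macrophages, was higher by less than 2-fold. It had 1553, 2053 and 2548 reads, or 29.4, 39.9 and 48.3 RPKM, lowest in the 0-day library and with no overlap of the counting intervals. The 3-day and 5-day log2 ratios were 0.44 (0.34 to 0.53) and 0.71 (0.62 to 0.81), or 0.35 and 0.40 under TMM scaling and 0.33 and 0.58 with the length trend removed. Its direction was the same under all of these. Vcam1 and Cxcl12 share stromal sources, and their values went opposite ways, with 1.85, 3.66 and 8.99 times as much Vcam1 as Cxcl12 by RPKM at 0, 3 and 5 days.

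Macrophages, which carry VCAM1 in the marrow, were followed by 12 markers of macrophages and monocytes. Of these, 2 were higher at 3 days, against 4.08% of all genes, and 5 at 5 days, against 15.5%. At either time 0 were lower, and under TMM scaling 3 were higher at 5 days, against 7.13%. Their sum went from 347 to 416 and 511 RPKM. Cd68, a lysosomal protein, was at 56.1, 90.8 and 136 RPKM and Hmox1, haem oxygenase, at 67.7, 76.2 and 83.0 RPKM, while C1qa was at 62.4, 57.6 and 54.4 RPKM. The log2 ratios of Cd68, Hmox1 and C1qa at 5 days were 1.27, 0.29 and −0.20, beside a median of 0.31 for all genes. Under TMM scaling they were 0.97, −0.02 and −0.51. The part of macrophages in the level of Vcam1 was not tested.

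Of 11 tested ligands of integrins and endothelial adhesion genes, 1 was higher at 3 days, and 1 was higher and 1 lower at 5 days. The higher gene was Fn1, fibronectin, the other ligand of VLA-4, at 25.9, 102 and 223 RPKM. With log2 ratios of 1.97 and 3.10 (3.05 to 3.15) it stood above Itga4 and Itgb1, and with the length trend removed it was 2.59 at 5 days. The lower gene was Selp, P-selectin, with −1.08 (−1.91 to −0.55) from 65 reads at 0 days and 28 at 5 days. Abundant genes of the list were Selplg, the selectin ligand PSGL-1, with 0.65 at 5 days, and the matrix protein gene Thbs1 with −0.95, which passed the limit under TMM scaling at −1.25 and with the length trend removed at −1.31. The median was −0.04 at 5 days.

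**Figure D4:**
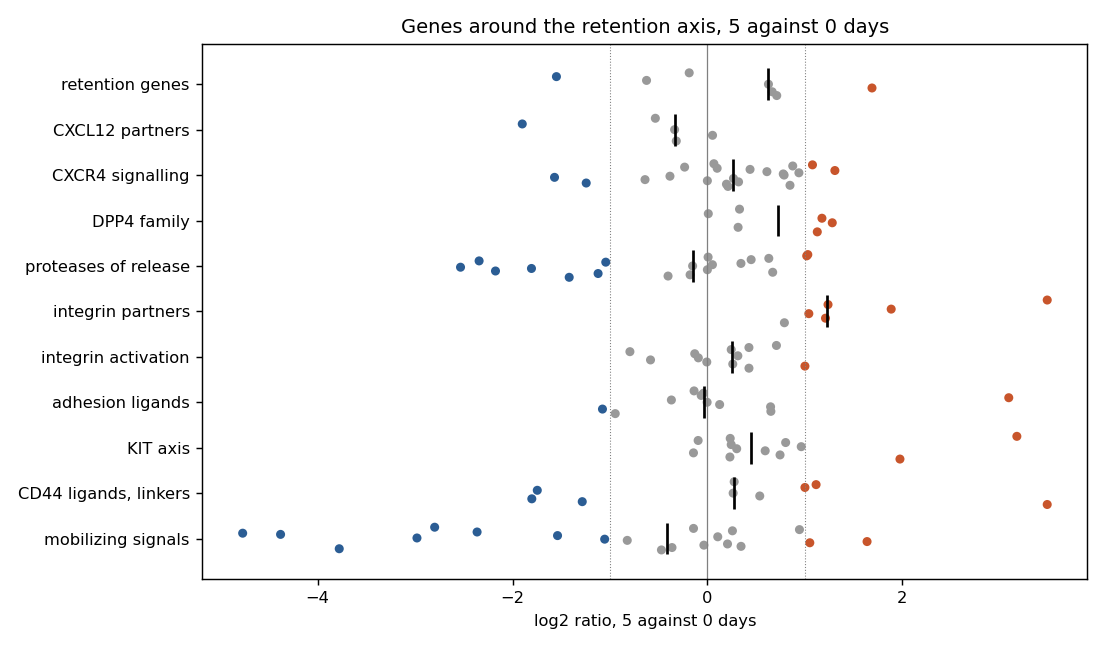
Log2 ratio of RPKM + 0.1 at 5 against 0 days (horizontal axis) for each tested gene of the retention set and of 10 related lists (rows), where blue points are at least 2-fold lower, orange points at least 2-fold higher and black bars list medians over the genes shown. Integrin partners have 5 of 6 genes right of the upper dotted line, and mobilizing signals have 8 of 20 left of the lower one. Itga1 and Itga9, among these 5, were below 1 RPKM at 0 days and tested only through their later levels.

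Kitl, stem cell factor, was the least abundant member. It had 24, 32 and 26 reads at 0, 3 and 5 days, or 0.284, 0.388 and 0.307 RPKM, and the counting intervals of all 3 libraries overlapped. Its log2 ratios were 0.35 (−0.36 to 1.28) and 0.09 (−0.74 to 0.98), the second being −0.14 under TMM scaling. A difference was not detectable at this depth, and the interval at 5 days spans lower and higher levels.

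Its receptor and the signalling genes behind it had more reads. Of 12 tested genes of this axis, 2 were higher and 0 lower at 3 days and again at 5 days, with medians of 0.28 and 0.45. Among all genes 4.08% were higher at 3 days and 15.5% at 5 days. Kit itself, the receptor on stem and progenitor cells and mast cells, was at 8.19, 10.01 and 16.1 RPKM, with a log2 ratio of 0.96 (0.84 to 1.11) at 5 days, under the limit. Cbl, the ubiquitin ligase that marks KIT for degradation, was at 2.56, 15.4 and 24.0 RPKM, with ratios of 2.54 and 3.18. Sh2b3 (LNK), an adaptor that damps KIT and thrombopoietin receptor signals, was at 10.3, 31.4 and 40.7 RPKM, with 1.60 and 1.98. The abundant signalling genes Ptpn6, Lyn and Grb2 were at 0.23, 0.30 and 0.25 after 5 days, and at −0.08, −0.01 and −0.06 under TMM scaling. Cbl and Sh2b3 passed the limit also under TMM scaling and with the length trend removed. The 12 markers of haematopoietic stem and progenitor cells summed to 142, 125 and 169 RPKM, with 0 of 10 tested genes higher and 0 lower at 5 days. Under TMM scaling these sums were 156, 129 and 149, so that the direction at 5 days depends on the scaling. The most abundant of them were Cd48, Gata2 and Cd34, with log2 ratios of 0.57, −0.20 and −0.14 at 5 days. Cd48 alone held 53.6, 58.9 and 79.6 RPKM of the sums with the deposited RPKM. At 5 days 0 of the 10 were higher and 1 lower under TMM scaling. With the length trend removed 1, Cd48 at 1.09, was higher and 0 were lower.

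Cd44, the hyaluronan receptor, which nearly all marrow cells carry, was the second most abundant member and stayed within the 2-fold limit. It had 8903, 10014 and 7822 reads, or 101, 117 and 89.2 RPKM, highest in the 3-day library and lowest in the 5-day library, with no overlap of the counting intervals. Against 0 days its log2 ratio was 0.20 (0.16 to 0.25) for the 3-day and −0.19 (−0.23 to −0.14) for the 5-day library. The direction at 3 days turned with the length trend removed, to −0.11. At 5 days it was lower under every scaling, with −0.49 under TMM scaling and −0.54 with the trend removed. Its 5-day ratio stood at percentile 23.8 of all genes, or at 8.54 with the trend removed. Cd44 has many splice forms, with 8 coding transcripts in GENCODE M21, and the counts do not separate them.

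Of 9 tested ligands and linkers of CD44, 1 was higher at 3 days, and 3 were higher and 3 lower at 5 days. Vcan, versican, a proteoglycan that binds hyaluronan, had the highest ratio, with 164, 554 and 2040 reads, or 0.850, 2.94 and 10.6 RPKM, and a log2 ratio of 3.49 (3.41 to 3.88) at 5 days. Hmmr, another hyaluronan receptor and a gene of dividing cells, had 1.12, and Hyal2, a hyaluronidase, had 1.00 on 30 and 63 reads. The lower genes were Spp1, osteopontin, with −1.80, Lyve1, a hyaluronan receptor of lymphatic and sinus endothelium, with −1.75, and Srgn, serglycin, the granule proteoglycan, with −1.28. Spp1 is also in the osteolineage list above. The cytoskeletal linkers Msn and Ezr had 0.27 and 0.28, but −0.04 and −0.03 under TMM scaling. Under TMM scaling 1 gene of this list, Vcan, was higher and 3 were lower, and with the length trend removed 2 were higher and 2 lower, with Srgn at −0.65.

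Other signals known to act on stem cell release, some to promote and some to restrain it, include chemokines that bind CXCR2, G-CSF, complement, sphingosine 1-phosphate and inflammatory cytokines. Of 19 tested genes at 3 days, 0 were higher and 1 lower, and of 20 at 5 days, 2 were higher and 8 lower, with a median of −0.42. The lower gene at 3 days was Il6 at −1.14. Without the length trend Il6 stood at −0.69 and 0 genes were lower, while under TMM scaling 2 were. At 5 days 1 was higher and 9 lower under TMM scaling, and 1 and 8 with the length trend removed. The lower genes at 5 days included the CXCR2 ligands Cxcl1 with a log2 ratio of −4.77 and Cxcl2 with −4.38, and Tnf with −3.78. The receptor C5ar1 had −2.36, on 4163, 3647 and 805 reads. The complement component C3 was at 115, 200 and 222 RPKM and with 0.95 at 5 days. Csf3, the gene of G-CSF, had 11, 10 and 0 reads. Beside these the immediate early genes, which answer cell activation and also handling, summed to 5874, 4922 and 1622 RPKM, with 13 of 13 lower at 5 days, or 12 of 13 without the length trend. Their part in these ratios was not tested.

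Between 3 and 5 days, a comparison that does not use the 0-day library, 0 of the 7 tested members were higher and 1, Cxcl12, was lower, which did not pass the limit with a pseudocount of 1, at −0.90. Of all 11375 genes tested, 1.95% were higher and 3.45% lower. At a limit of 1.5-fold 1 member, Itga4, was higher, against 17.3% of all genes, and 1, Cxcl12, was lower, against 6.86%. The log2 ratio of Cxcl12 was −1.004 (−1.18 to −0.86), further from 0 than its ratio of −0.54 over the first 3 days, and that of Cxcr4 was −0.44 (−0.48 to −0.40). Cd44 had −0.39. The integrin subunits were higher, Itga4 with 0.64 (0.60 to 0.69) and Itgb1 with 0.51 (0.44 to 0.58), beside a median of 0.25 for all genes. Vcam1 had 0.28 and Dpp4 0.19, close to that median, and under TMM scaling Vcam1 was at 0.05 and Dpp4 at −0.03. With the length trend removed Itga4 stood at 0.59 between 3 and 5 days, beside 0.54 over the first 3 days.

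**Figure D5:**
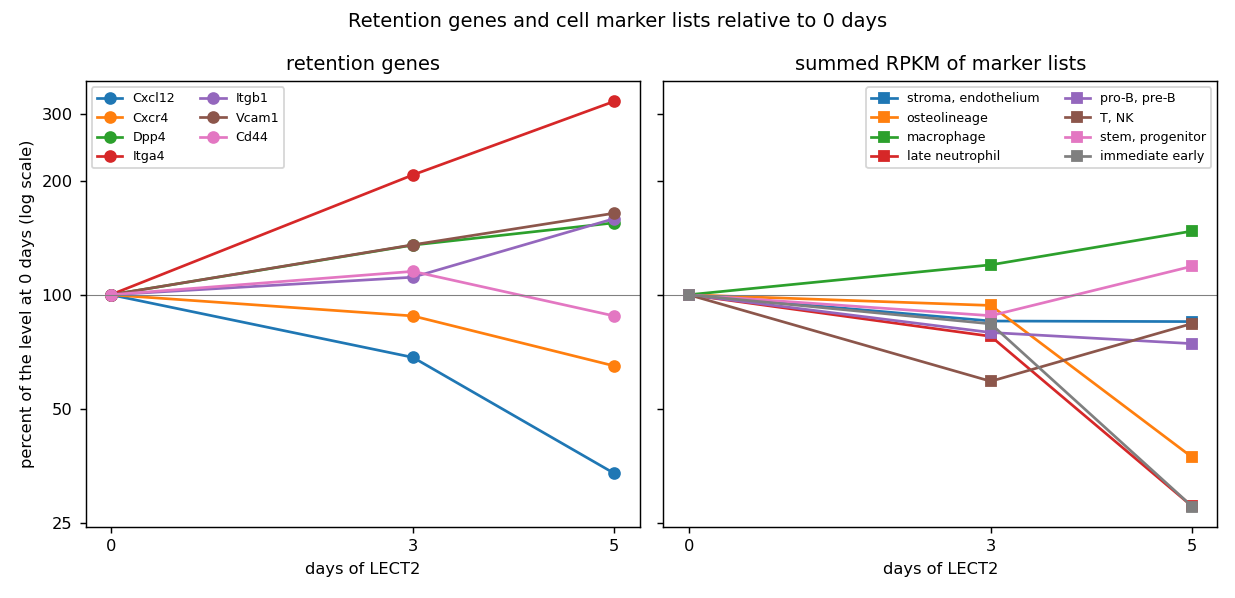
Level relative to 0 days in percent (vertical log axis) by days of LECT2, for the 7 members averaging at least 1 RPKM (left) and for the summed RPKM of 8 marker lists (right), with 1 library per point. At 5 days Itga4 is at 324% and Cxcl12 at 33.8%, while the late neutrophil markers are at 27.6%, the osteolineage markers at 37.2% and the macrophage and monocyte markers at 147%.

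The remaining marker lists give the makeup of the libraries beside which all members were measured. Erythroid markers summed to 4449, 3620 and 1607 RPKM, a sum held mostly by the haemoglobin genes Hba-a1, with 2253, 1591 and 596 RPKM, and Hbb-b1, with 1696, 1387 and 527 RPKM. These were the 2 of 8 erythroid markers counted as lower at 5 days, and 0 were with the length trend removed. Slc4a1, the anion exchanger of red cells, was at 109, 183 and 174 RPKM. T and NK cell markers summed to 282, 166 and 236 RPKM, megakaryocyte markers to 49.7, 31.8 and 45.3 RPKM, and plasma cell and plasmacytoid dendritic cell markers to 413, 272 and 358 RPKM. Their part in the levels of the members was not tested.

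The genes whose pair of log2 ratios lay nearest to that of each member were sought among the 8191 genes averaging at least 5 RPKM. Cxcl12 had few neighbours, with 4 genes within a distance of 0.1, the nearest being Dusp2, a phosphatase that acts on MAP kinases, then Rgs1 and Dhrs7. Itga4 had 28, the nearest being BC018507, Ndst2 and Gabpb2. Cxcr4 had 44, led by Srpk3, Dnajb2 and Myl12b, and Cd44 had 47, with Dusp5 and Bcar3 among the nearest. The moderate members had many more, 193 for Dpp4 with Zfr, Ccdc47 and Lrp10 nearest, 187 for Itgb1 with Tex2, Med26 and Atpbd4, and 180 for Vcam1 with Dusp3 and Rhoq. These distances rest on 2 ratios from 3 libraries.

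The deposited tables carry gene IDs and lengths but no coordinates. In GENCODE M21 (GRCm38), matched by Entrez gene ID, Cxcl12 (20315) lies at chr6:117168535-117181367 on the plus strand, Cxcr4 (12767) at chr1:128588199-128592293 on the minus strand and Kitl (17311) at chr10:100015630-100100416 on the plus strand. Dpp4 (13482), Itga4 (16401) and Cd44 (12505) share chromosome 2, at chr2:62330073-62412231, chr2:79255426-79333123 and chr2:102811141-102901665, on the minus, plus and minus strands. Itgb1 (16412) lies at chr8:128685654-128733200 on the plus strand and Vcam1 (22329) at chr3:116109949-116129688 on the minus strand. All 8 are protein-coding, and the tables give 1 count for each gene. The longest coding transcript has 2 exons in Cxcr4, 4 in Cxcl12, 9 in Vcam1, 28 in Itga4 and 26 in Dpp4.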

How the data were processed

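RNA-sequencing of flushed BM cells was analysed in 3 libraries, 1 for each of 0, 3 and 5 days of LECT2. For each pair of libraries, the authors deposited a table with whole read counts per gene, the RPKM computed from these counts, and gene lengths. The methods name Cufflinks for the quantitation. The submitters' processing notes name the build mm8, and the aligner is not given in the sources used here. Columns with the authors' log2 ratios, P values and false discovery rates, which compare 2 libraries, were not used. A gene without reads, listed by the authors at 0.01 RPKM, was set to 0.

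The totals of the counts were 15523952, 15146983 and 15514673 reads at 0, 3 and 5 days. Log2 ratios of RPKM + 0.1 were computed with exact 95% intervals of the ratio of the counts. A repeated name was represented by its row of highest mean RPKM. No p-value was computed. No fold is given against a library with at most 3 reads on the gene. The members and lists were chosen with earlier results of these data known. Genes were named by a rule that takes the 8 members, the 3 most abundant genes of each list, up to 3 related genes with the largest ratio past 2-fold at 5 days, and the 3 genes nearest in pattern to each member. Some genes that this rule takes are not reported here. Other genes named were chosen after their values were seen, which holds for Itgav, Itga9, Itgb7, Itgb1bp1, Fap, Kit, Cxcr7, Lepr, Nes, Runx2, Slc4a1, Csf3, C5ar1, Mmp25, Mmp9 and the other genes past 2-fold beyond these 3.

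Alternatives were pseudocounts of 1 and 0.01, TMM scaling (edgeR 4.0.16), median-of-ratios factors (DESeq2 1.42.0), a total without the 100 most abundant genes, the sum of rows, a minimum of 5 RPKM or none, a limit of 1.5-fold, and removal of the trend on gene length (lowess, span 0.3, statsmodels 0.14.6). Python 3.11.15 and R 4.3.3 were used. The steps were tested on simulated data.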

Additional observations from a re-analysis of the deposited data

Results flagged for a closer look

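Cd44 went in opposite directions at the 2 time points, with log2 ratios of 0.20 (3 days) and −0.19 (5 days) against the same 0-day library. With 1 library per time point the difference was not tested. With the trend on gene length removed the ratio at 3 days was −0.11, so that both time points were then lower. Under TMM scaling the ratios were 0.12 and −0.49.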

How the results depend on the processing

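The comparisons rest on 1 library per time point, so leaving out a library was not possible. No paired analysis was possible because each group holds 1 library. Ratios changed direction with the length trend removed for Cd44 (−0.11), Cxcr4 (0.017) and Itgb1 (−0.046) at 3 days, and for Dpp4 between 3 and 5 days under TMM (−0.029) and median-of-ratios scaling (−0.023). Kitl at 5 days, whose interval includes 0, went from 0.087 to between −0.25 and −0.067 under the 3 other scalings and the length correction. Of the 24 log2 ratios of the members, 18 lay outside their counting interval under TMM scaling, 18 with median-of-ratios factors, 19 when the 100 most abundant genes were left out of the total, 15 with the length trend removed, 1 with a pseudocount of 1, and 0 with a pseudocount of 0.01 or the sum of rows. The members' median log2 ratio went from 0.28 to 0.029 at 3 days with the length correction, and at 5 days from 0.36 to 0.088 under TMM, 0.097 under median-of-ratios and 0.029 under length correction. Between 3 and 5 days it went from −0.03 to −0.23 under TMM and −0.22 under median-of-ratios scaling. The number of members higher at 3 days went from 1 to 0 under all 3 other scalings and the length correction. At a limit of 1.5-fold, 4 members were higher and 2 lower at 5 days, against 34.5% and 12.3% of all genes. Between 3 and 5 days 1 was higher at this limit, against 17.3%. With a pseudocount of 1 the number lower between 3 and 5 days was 0. Under TMM scaling 816 of all genes were higher and 1162 lower at 5 days, against 1786 and 680 with the deposited RPKM. The cause was not tested. Depth limits Kitl, with at most 32 reads in a library.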

Other observations

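The receptors of sphingosine 1-phosphate, a lipid that draws stem cells and lymphocytes into the blood, went different ways, and these genes were chosen after their values were seen. S1pr1, the receptor that guides cells out of the marrow, was at 31.9, 30.3 and 18.0 RPKM in the 3 libraries, with a log2 ratio of −0.82 (−0.95 to −0.70) at 5 days that was −1.13 under TMM scaling. S1pr2 was at 1.33, 2.46 and 4.35 RPKM, with 1.64 (1.28 to 2.16), and S1pr3 at 0.690, 0.839 and 1.54 RPKM, with 1.05 (0.65 to 1.68) at 5 days. Under TMM scaling S1pr3 was at 0.77. Sgpl1, the lyase that degrades the lipid, had a ratio of 0.21 at 5 days and −0.10 under TMM scaling.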
